A study of Mus musculus with 6 samples.

Results

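The 10 genes described here mark cell layers of the olfactory bulb and were followed through RNA-seq libraries that are labelled as mouse prefrontal cortex. They are *Omp* and *S100a5*, carried by the axons of olfactory sensory neurons, *Th*, *Sp8*, *Calb2* and *Frmd7*, found in periglomerular interneurons, *Tbx21*, *Cdhr1* and *Doc2g*, found in mitral and tufted cells, and *Lgr5*, to which no layer was assigned. The members were chosen by their levels in these 6 libraries, so those levels and the differences between them are given as a description, and no p-value of a member is reported. All 10 were found among the 56923 genes in the count tables, and all 10 were among the 19084 genes tested.

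The study asked what loss of *Pla2g4e*, a calcium-dependent phospholipase that makes N-acylphosphatidylethanolamines, does to the brain. The groups compared were 3 Pla2g4e KO and 3 wild type (WT) libraries of prefrontal cortex. The KO mice were constitutive knockouts of the strain C57BL/6N-Atm1Brd Pla2g4etm2a. They carry a LacZ gene trap in Pla2g4e that joins its transcript, and the study expects loss of function from it. The study used mice of both sexes, its methods give no treatment for these libraries, and the labels state neither age nor sex, nor whether each library came from a different mouse, so the spread between libraries of a group may be partly technical.

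The olfactory bulb lies at the front of the brain, close to the prefrontal cortex. Axons of sensory neurons from the nose end there in spherical structures called glomeruli, where they contact mitral and tufted cells, the glutamatergic neurons that project out of the bulb. Periglomerular cells are interneurons that surround the glomeruli, and some of them make dopamine. Granule cells lie deeper, and both interneuron classes are renewed in the adult by neuroblasts that migrate into the bulb. The cell bodies of the sensory neurons stay in the nasal epithelium, so transcripts such as *Omp* reach the bulb in axons.

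Library totals ranged from 11792463 to 14594230 fragments (read pairs), with KO replicate 1 the deepest. Levels are given as CPM, a gene's fragments per 1000000 fragments of the library after scaling between libraries. *Pla2g4e* was at 5.95, 8.12 and 7.97 CPM in KO replicates 1 to 3 and at 7.84, 11.3 and 13.2 CPM in WT replicates 1 to 3, so WT replicate 1, as labelled, was inside the KO range and the groups are named here as labelled. Exons of the trapped transcript can still be counted in KO mice, so this check of the labels is a weak one. The level of *Xist* was 1387 CPM in KO replicate 1, 969 CPM in WT replicate 1 and 0 to 0.246 CPM elsewhere. The cortical label was checked with 12 markers of cortical excitatory neurons, which summed to between 6647 CPM (KO replicate 1) and 7916 CPM (WT replicate 2), with every gene at 10.3 CPM or more in every library.

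KO replicate 1 held the highest level of every member and WT replicate 2 the lowest. This order at both ends occurred for 10 of 10 members and for 6.96% of all genes tested, and KO replicate 1 was the highest library for 22.1% of all genes tested. The members took 6286 fragments in KO replicate 1, against 343 in WT replicate 2 and 835 to 1382 in the other 4 libraries. WT replicate 1 was second for 7 members and KO replicate 2 for 3 (*Th*, *Lgr5* and *Cdhr1*). KO replicate 1 and WT replicate 1 were also the libraries with *Xist*, and the part of sex in the levels was not tested. The study dissected prefrontal cortex by a cut through the anterior brain, and the labels do not state how much bulb each sample held. The part of the dissection in these levels, and in the differences between KO and WT, was not tested.

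**Figure D1:**
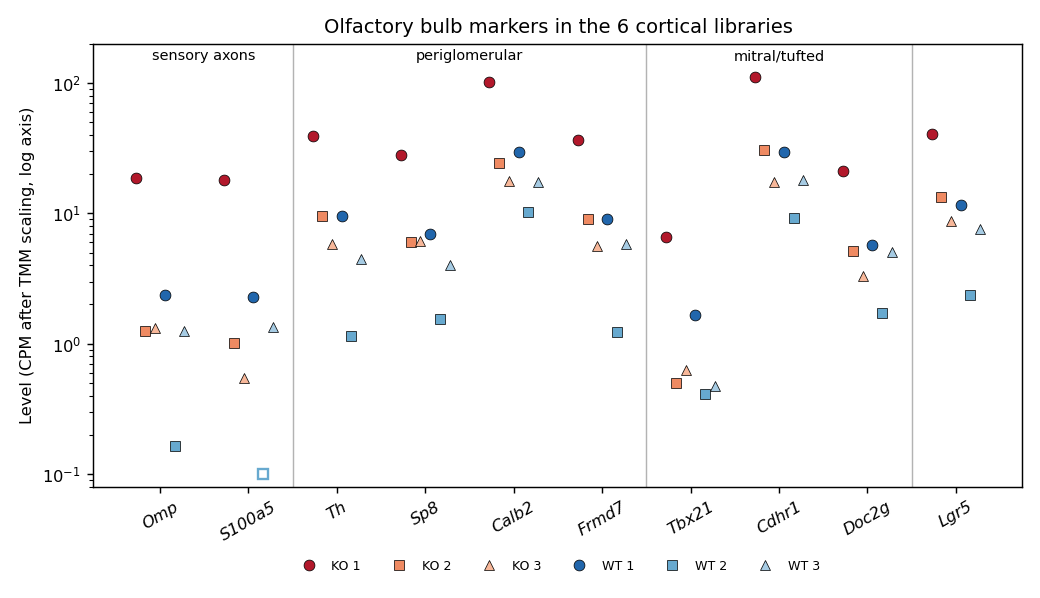
Level of each member in each library (CPM after TMM scaling, log axis), with KO libraries in red shades and WT libraries in blue shades. KO replicate 1 is the highest point for all 10 genes and WT replicate 2 the lowest. The open symbol marks *S100a5* in WT replicate 2, where no fragment was counted, and is drawn at the foot of the axis.

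The sensory axon transcripts were the most unequal between libraries. *Omp* encodes the olfactory marker protein of mature olfactory sensory neurons (ENSMUSG00000074006.4, chromosome 7, 97792566 to 97794709, minus strand, GRCm39). It was at 18.9, 1.26 and 1.33 CPM in KO replicates 1 to 3 and at 2.35, 0.164 and 1.26 CPM in WT replicates 1 to 3. These levels rested on 279, 15 and 17 fragments in the KO libraries and 30, 2 and 16 fragments in WT. A single library of 6 was therefore far above the rest, and KO replicates 2 and 3 lay between the WT libraries.

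*S100a5* encodes a calcium-binding protein of the S100 family that is made in sensory neurons (ENSMUSG00000001023.11, chromosome 3, 90515830 to 90519087, plus strand). It was at 18.2, 1.01 and 0.55 CPM in the KO libraries and at 2.27, 0 and 1.33 CPM in the WT libraries, from 269, 12, 7, 29, 0 and 17 fragments. No fragment was seen in WT replicate 2, where 3 fragments, the limit used here for a count of 0, would be 0.246 CPM and the 2-sided exact Poisson 95% interval ends at 0.302 CPM (counting error only). KO replicate 1 was 8.02 times the next library for *Omp* and 8.0 times for *S100a5*. Both genes had WT replicate 1 as the second library.

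The periglomerular members followed the same library order at both ends with smaller steps. *Th* encodes tyrosine hydroxylase, the rate-limiting enzyme of dopamine synthesis (ENSMUSG00000000214.12, chromosome 7, 142446489 to 142484865, minus strand). It was at 39.1, 9.55 and 5.86 CPM in KO replicates 1 to 3 and at 9.48, 1.15 and 4.47 CPM in WT replicates 1 to 3. KO replicate 1 was 4.10 times the next library. KO replicate 2 was nearly level with WT replicate 1, and KO replicate 3 lay within the range of the WT libraries.

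*Sp8* encodes a zinc-finger transcription factor of bulb interneurons (ENSMUSG00000048562.8, chromosome 12, 118810064 to 118816311, plus strand). Its level was 28.2, 6.03 and 6.09 CPM in the KO libraries and 6.98, 1.56 and 4.0 CPM in the WT libraries. *Frmd7* encodes a FERM domain protein (ENSMUSG00000036131.13, chromosome X, 49984057 to 50031587, minus strand). Its level was 36.7, 9.05 and 5.62 CPM in the KO libraries and 9.09, 1.23 and 5.81 CPM in the WT libraries. For both genes KO replicate 1 was 4.04 times the next library, WT replicate 1, and the other KO libraries stayed below WT replicate 1.

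*Calb2* encodes calretinin, a calcium-binding protein of periglomerular and granule cells that cortical interneurons also make (ENSMUSG00000003657.10, chromosome 8, 110864134 to 110894842, minus strand). It was at 103, 24.5 and 17.9 CPM in the KO libraries and at 29.7, 10.2 and 17.4 CPM in the WT libraries. KO replicate 1 was 3.46 times the next library, the smallest step among the periglomerular members.

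Among mitral and tufted cell markers, *Tbx21* encodes a T-box transcription factor that T lymphocytes also use (ENSMUSG00000001444.3, chromosome 11, 96988897 to 97006157, minus strand). It was at 6.56, 0.503 and 0.625 CPM in the KO libraries and at 1.65, 0.409 and 0.471 CPM in the WT libraries, from 97, 6, 8, 21, 5 and 6 fragments. KO replicate 1 stood clear of the others, and the exact Poisson 95% interval of WT replicate 1 (1.02 to 2.52 CPM) overlapped those of KO replicates 2 and 3 and WT replicate 3. Of 6 genes of T and natural killer cells, *Cd3e*, *Cd3d*, *Cd8a*, *Nkg7*, *Ifng* and *Gzma*, the summed fragments were 1 to 4 in every library. That list was added after the data were seen.

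*Cdhr1* encodes a cadherin-related protein that is also known from photoreceptors (ENSMUSG00000021803.11, chromosome 14, 36799814 to 36820304, minus strand). Over all libraries together it was the member with the most fragments, 1659, 364 and 222 in KO and 377, 113 and 230 in WT. In KO replicate 3 and WT replicates 1 and 2, *Calb2* had slightly more. The level of *Cdhr1* was 112, 30.5 and 17.3 CPM in the KO libraries and 29.6, 9.25 and 18.1 CPM in the WT libraries. KO replicate 2 and WT replicate 1 were nearly level behind KO replicate 1.

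*Doc2g* encodes a C2 domain protein of the double C2 family (ENSMUSG00000024871.12, chromosome 19, 4053313 to 4057005, plus strand). It was at 21.2, 5.19 and 3.28 CPM in the KO libraries and at 5.72, 1.72 and 5.10 CPM in the WT libraries. Of its exon bases, 63.5% are shared on the same strand with the gene model *Gm49405*. Fragments in that stretch were not assigned to either gene, so the level of *Doc2g* is too low by an amount that was not measured. *Gm49405* itself had 24 to 52 fragments per library, with WT replicate 3 the highest. No other member shares exon bases with another gene model.

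*Lgr5* encodes a receptor for R-spondins and is widely used as a stem cell marker (ENSMUSG00000020140.16, chromosome 10, 115286216 to 115423685, minus strand). It was at 41.0, 13.4 and 8.83 CPM in the KO libraries and at 11.5, 2.37 and 7.61 CPM in the WT libraries. KO replicate 1 was 3.06 times KO replicate 2, the smallest step of all 10 members. The library order of *Lgr5* was that of *Th*.

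A level of KO replicate 1 at least 4 times that of every other library was found for 5 of 10 members and for 46 of 19084 genes tested (0.241%). *Tbx21* fell just short at 3.98 times (4.08 times when scaled by library totals), and *Frmd7* and *Sp8* were just above. Only 11 of the 46 genes had 50 or more fragments in KO replicate 1, and 5 of these 11 were *Th*, *Frmd7*, *Sp8*, *Omp* and *S100a5*. The others were *Eomes*, *Ms4a15*, *Ltbp2*, *Stoml3*, *Gdpd4* and *Fam19a3*, of which *Ms4a15*, *Gdpd4* and *Fam19a3* were named after their values were seen.

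To compare levels between genes, CPM was divided by exon length in kilobases. On this scale *Calb2* was the most abundant member in KO replicate 1, at 59.0 CPM per kb, followed by *S100a5* at 42.1, *Cdhr1* at 25.9, *Frmd7* at 17.1 and *Th* at 16.6. *Omp* was at 8.80, *Doc2g* at 6.99, *Sp8* at 6.18, *Lgr5* at 4.0 and *Tbx21* at 2.64 CPM per kb. In WT replicate 2 *Calb2* was at 5.87 and *Cdhr1* at 2.14 CPM per kb, and each other member was at 0.573 CPM per kb or less. The library with the fewest member fragments thus still held 125 of *Calb2* and 113 of *Cdhr1*. In bulk tissue, fewer cells of a type and less RNA per cell cannot be told apart.

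The sums over the members of a layer differed in how far they fell from KO replicate 1. The summed CPM of the sensory axon members in WT replicate 1 was 12.5% of that in KO replicate 1, whereas the periglomerular sum was 26.7% and the mitral/tufted sum 26.4%. In KO replicate 2 the sums were 6.11%, 23.7% and 25.9% of those in KO replicate 1. They were 5.06%, 17.1% and 15.2% in KO replicate 3, and 6.99%, 15.3% and 16.9% in WT replicate 3. In WT replicate 2 the sensory sum rested on 2 fragments, under the limit of 3, so no percentage is given for it, and the other sums were 6.84% and 8.13%. In each of the 4 libraries with all 3 percentages the sensory sum was the lowest, and the periglomerular and mitral/tufted percentages lay close together. These sums are carried by their most abundant genes, and *Cdhr1* made up 112 of the 140 CPM of the mitral/tufted sum in KO replicate 1. Within that layer *Tbx21* was further below KO replicate 1 than *Cdhr1* and *Doc2g* were in all 5 other libraries. It was at 7.66% of its KO replicate 1 level in KO replicate 2, 9.53% in KO replicate 3 and 7.18% in WT replicate 3, where *Cdhr1* was at 27.2%, 15.5% and 16.1%. In WT replicate 1 the mitral/tufted members lay close together, with *Tbx21* at 25.1%, *Cdhr1* at 26.4% and *Doc2g* at 27.0%, and in WT replicate 2 they were at 6.24%, 8.25% and 8.10%. The spread between genes of that layer thus varied from library to library, and no difference between layers is read from the sums.

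**Figure D2:**
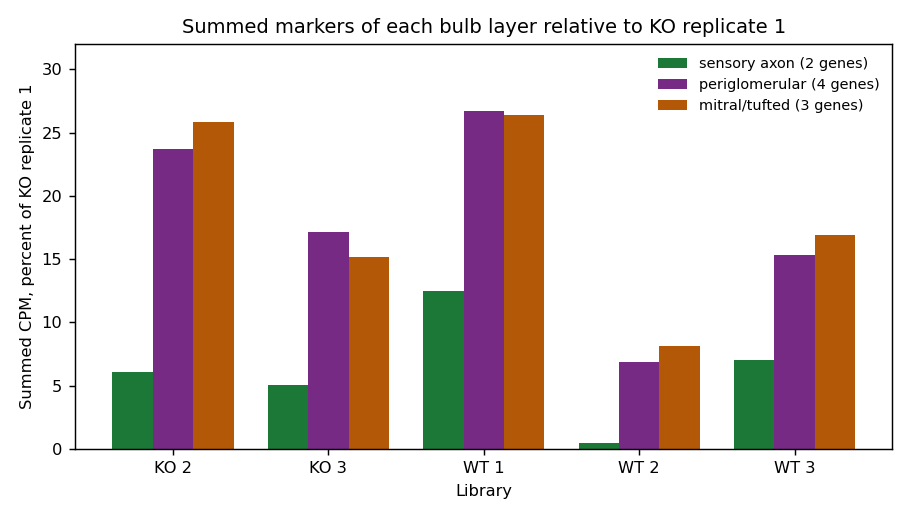
Summed CPM of the sensory axon, periglomerular and mitral/tufted members in each of 5 libraries, as a percent of the same sum in KO replicate 1 (bars start at 0). The sensory axon bar is the shortest in every library and reaches 12.5% in WT replicate 1, while in WT replicate 2 it rests on 2 fragments and cannot be told from 0.

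Fragment ratios within a library do not depend on scaling between libraries. *Omp* had 16.8 fragments per 100 *Cdhr1* fragments in KO replicate 1 (exact Clopper-Pearson 95% interval 14.8 to 19.1, counting error only). It had 4.12 in KO replicate 2 (2.28 to 6.89), 7.66 in KO replicate 3 (4.38 to 12.5), 7.96 in WT replicate 1 (5.29 to 11.6) and 6.96 in WT replicate 3 (3.91 to 11.5). These intervals all lay below that of KO replicate 1. *S100a5* behaved likewise, with 16.2 in KO replicate 1 (14.2 to 18.5) and 0 to 7.69 in the other libraries. The ratio of *Omp* to *S100a5* was 104 per 100 in KO replicate 1 (87.4 to 123) and 103 in WT replicate 1 (60.0 to 179), and the intervals of the other libraries with both genes overlapped these.

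*Tbx21* also had more fragments per 100 *Cdhr1* fragments in KO replicate 1, at 5.85 (4.71 to 7.18), than in KO replicate 2, at 1.65 (0.601 to 3.62). It had 5.57 in WT replicate 1 (3.41 to 8.64) and 2.61 to 4.42 in the other 3 libraries, whose intervals overlapped that of KO replicate 1.

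The ratios of the periglomerular members to *Cdhr1* varied less than those of *Omp* and *S100a5*. *Th* had 34.9 fragments per 100 *Cdhr1* fragments in KO replicate 1 (31.7 to 38.4), 31.3 and 33.8 in KO replicates 2 and 3, 32.1 in WT replicate 1 and 24.8 in WT replicate 3 (18.2 to 33.2), with intervals that overlapped that of KO replicate 1. It was lower in WT replicate 2, at 12.4 (6.56 to 21.7), as was *Frmd7*, at 13.3 (7.19 to 22.8) against 32.7 (29.7 to 36.1) in KO replicate 1. *Frmd7* and *Th* were nearly equal in number, with 93.8 *Frmd7* fragments per 100 *Th* fragments in KO replicate 1 and 94.7 to 130 in the other libraries. *Calb2* had 80.2 to 111 and *Doc2g* 17.0 to 28.3 fragments per 100 *Cdhr1* fragments over the 6 libraries. WT replicate 2 was within the range of the other libraries for *Doc2g* and the highest for *Calb2*. *Sp8* had 25.1 in KO replicate 1 (22.5 to 28.0), 35.1 in KO replicate 3 (26.8 to 45.7) and 16.8 to 23.6 in the other 4 libraries. *Lgr5* had 36.6 in KO replicate 1 (33.3 to 40.18) and 50.9 in KO replicate 3 (40.22 to 64.1), where the intervals just missed each other, and 25.7 to 44.0 in the other 4 libraries.

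**Figure D3:**
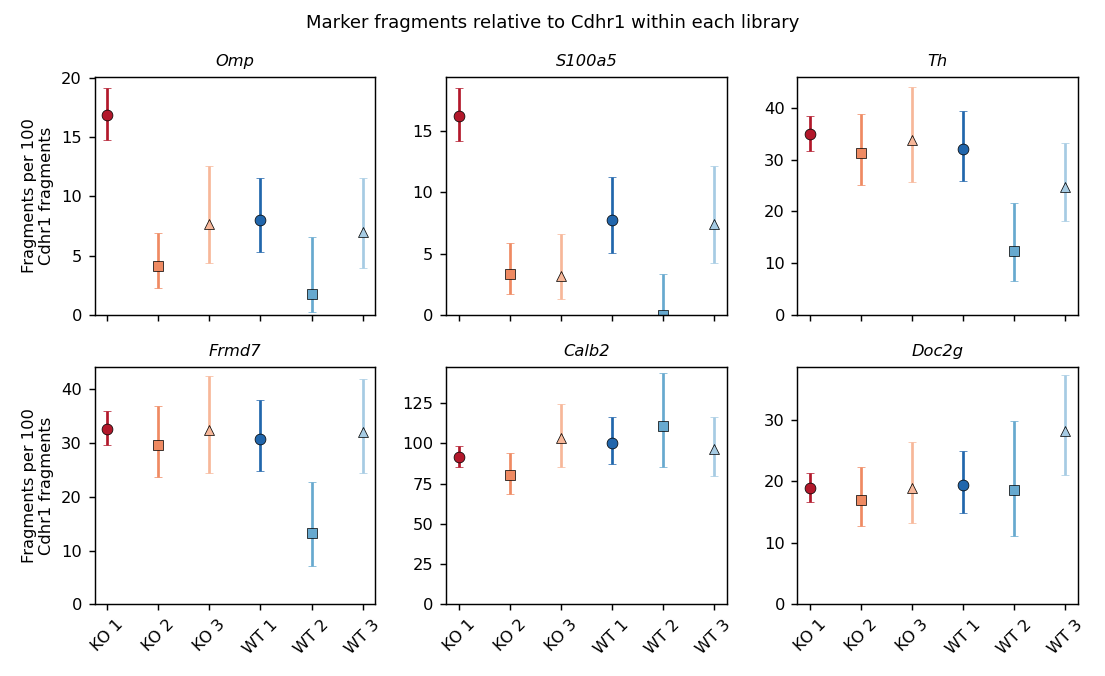
Fragments of 6 members per 100 *Cdhr1* fragments in each library, with exact 95% intervals for counting error. *Omp* and *S100a5* stand highest in KO replicate 1, at 16.8 and 16.2, while *Th* and *Frmd7* are nearly level in KO replicates 1 to 3 and WT replicate 1 and lowest in WT replicate 2.

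KO was compared with WT by limma-voom over all genes. At an adjusted p-value under 0.05, 0 of 10 members and 0 of 19084 genes (0.0%) were called. At an unadjusted p-value under 0.05, limma-voom gave 1492 genes (7.82%). edgeR called 0 genes, with 1507 unadjusted, and DESeq2 called 1, *Sst*, with 902 unadjusted. The KO and WT levels overlapped for all 10 members, while every KO library was above every WT library for 6.72% of all genes tested and below for 6.29%. All 10 members had a log2 fold change above 0, as did 51.9% of all genes tested. The median over the members was 1.56, beside 0.01 over all genes. The largest were those of *S100a5* at 2.25 (SE 1.70) and *Omp* at 2.02 (SE 1.26), and the smallest were *Tbx21* at 1.0 (SE 0.93) and *Doc2g* at 1.01 (SE 0.65). Those of the remaining members lay between 1.07 (*Calb2*, SE 0.58) and 1.87 (*Th*, SE 0.82). This order is that of limma-voom and changed with the method. With edgeR *Omp* was at 2.52, *S100a5* at 2.47, *Tbx21* at 1.64 and *Doc2g* at 1.26. Because these values come from the libraries that chose the members, nothing is read from them beyond the sizes.

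Single libraries decided the size of these differences. Without KO replicate 1 the median log2 fold change of the members fell to 0.59, with 9 members above 0 and *Tbx21* at -0.28. Without WT replicate 2 the median was 0.82, with all 10 above 0. With each of the other libraries left out in turn, the median was 1.69 to 2.04. In the 4 libraries without *Xist*, KO replicates 2 and 3 against WT replicates 2 and 3, a split added after the data were seen, it was 1.28 and all 10 members were above 0. On the *Xist* side there was 1 library of each group, which allows no fit.

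**Figure D4:**
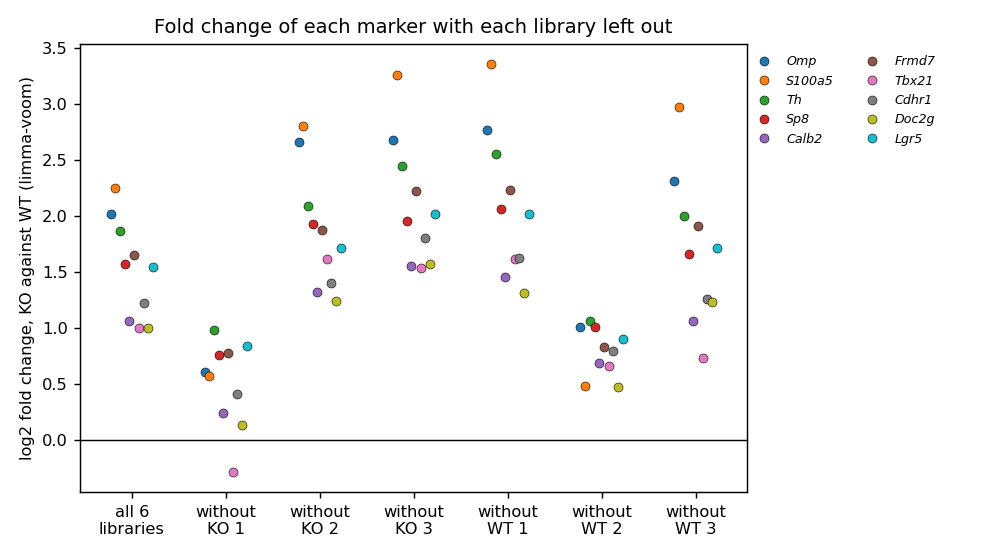
The limma-voom log2 fold change (KO against WT) of each member with all 6 libraries and with each library left out in turn. The points move towards 0 without KO replicate 1, where *Tbx21* is at -0.28, and without WT replicate 2, where they lie between 0.48 and 1.07.

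Other genes of the bulb layers, from lists of known markers, were then examined. Over all genes tested, KO replicate 1 was the highest library for 22.1%. Of 14 other genes of olfactory sensory neurons tested, 0 were called, 5 were highest in KO replicate 1, and the median log2 fold change was 0.27. It fell to 0.12 without KO replicate 1 and to 0.00 with edgeR's filter on low counts. *Stoml3*, a stomatin-like protein of sensory cilia, was also far highest in KO replicate 1. It was at 3.85, 0.503 and 0.0781 CPM in the KO libraries and 0.314, 0 and 0.392 CPM in the WT libraries, from 57, 6, 1, 4, 0 and 5 fragments. The cyclic nucleotide-gated channel subunit *Cnga2* had 15, 12 and 3 fragments in the KO libraries and 8, 3 and 3 in the WT libraries, too few to order the libraries. The transduction genes *Gnal* and *Adcy3*, which are also used in other parts of the brain, did not follow the members and were at 197 to 254 CPM and 52.0 to 63.5 CPM over the 6 libraries. By the rule for named genes, *Ebf3*, an EBF family transcription factor, was at 2.03 CPM in KO replicate 1 and 0.314 to 1.09 CPM elsewhere. *Ano2*, a chloride channel of sensory cilia, was highest in WT replicate 3.

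Of 12 other genes of glomerular-layer cells, 0 were called, 8 were highest in KO replicate 1, and the median log2 fold change was 0.43, against 0.09 without KO replicate 1 and 0.23 without WT replicate 2. *Cacng5*, which encodes an AMPA receptor auxiliary protein, was at 46.0, 17.2 and 11.6 CPM in the KO libraries and 13.8, 5.89 and 11.3 CPM in the WT libraries. The dopamine transporter *Slc6a3* had 28, 6 and 10 fragments in the KO libraries and 17, 1 and 7 in the WT libraries. The vesicular transporter *Slc18a2* had 28, 12, 2, 6, 13 and 1 fragments in the same order and did not follow *Th* in WT replicate 2. *Ddc*, the enzyme after *Th* in dopamine synthesis, was at 3.24, 2.76 and 3.36 CPM in the KO libraries and 1.88, 2.54 and 3.22 CPM in the WT libraries. Also not highest in KO replicate 1 were *Calb1*, *Gch1* and *Nr4a2*. *Calb1* and *Gch1* were highest in WT replicate 1, at 146 and 1.88 CPM against 114 and 1.08 CPM in KO replicate 1. *Nr4a2* was highest in KO replicate 2, at 44.2 CPM against 16.6 CPM in KO replicate 1. Of 8 genes on a list for midbrain dopamine neurons, *Pitx3*, *En1*, *Foxa1* and *Foxa2*, which encode regulators, had 0 fragments in all 6 libraries. The regulator *Lmx1b* had 2 to 10 fragments, highest in KO replicate 3, and *Aldh1a1*, an enzyme that other cells also make, was at 18.2 to 33.3 CPM, highest in KO replicate 2. The dopamine receptor *Drd2* was highest in WT replicate 3. With *Slc6a3*, all 4 tested genes had a log2 fold change above 0, with a median of 0.69, and 0 were called.

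Of 12 other genes of mitral and tufted cells, 0 were called, 9 were highest in KO replicate 1, and the median log2 fold change was 0.36. That median was -0.04 without KO replicate 1, 0.20 without WT replicate 2, 0.64 without KO replicate 3 and 0.00 with edgeR's filter on low counts. *Eomes*, the T-box factor Tbr2 of these cells, was at 23.3, 3.85 and 1.80 CPM in the KO libraries and 5.33, 0 and 1.73 CPM in the WT libraries. Its 344 fragments in KO replicate 1 compare with 0 in WT replicate 2. *Shisa3* had 194, 43 and 20 fragments in the KO libraries and 57, 2 and 38 in the WT libraries, and *Lbhd2* had 30 in KO replicate 1 and 5 to 11 elsewhere. The fellow T-box gene *Tbr1*, which cortical projection neurons also use, was lowest in KO replicate 1, at 121 CPM against 158 to 184 CPM in the other 5 libraries.

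All 14 genes of bulb granule cells and neuroblasts were highest in KO replicate 1, and all 14 had a log2 fold change above 0, with a median of 0.44 that was 0.22 without KO replicate 1 and also 0.22 without WT replicate 2. It was 0.69 without KO replicate 3, and none of these genes was called. *Pbx3*, a homeobox gene, was at 47.6, 21.8 and 13.7 CPM in the KO libraries and 16.9, 3.11 and 14.6 CPM in the WT libraries. *Igfbpl1*, a neuroblast gene, was at 4.26 CPM in KO replicate 1 and at 0.491 to 1.10 CPM elsewhere. *Sp9*, the paralog of *Sp8*, was at 18.3, 8.63 and 5.78 CPM in the KO libraries and 6.35, 3.77 and 7.61 CPM in the WT libraries. Of 9 genes of olfactory ensheathing glia, which wrap the sensory axons, 5 were highest in KO replicate 1, with *Fabp7* at 72.1 CPM there and 11.5 to 31.6 CPM elsewhere. *Ngfr* had 21 fragments in KO replicate 1 and 2 to 11 elsewhere, and *Frzb* was at 26.4 CPM there and at most 20.3 CPM elsewhere.

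Lists of markers for other tissues and cells held single genes with the pattern of the members. Genes on these lists may also be made in bulb cells, which was not examined. Over all genes tested, 6.96% were highest in KO replicate 1 and lowest in WT replicate 2. Of 9 tested genes of choroid plexus and meninges, 2 had this order. The first, *Aqp1*, a water channel, had 143, 17 and 27 fragments in the KO libraries and 38, 4 and 9 in the WT libraries, so that KO replicate 1 was 3.24 times the next library. *Ttr*, which defines choroid plexus, had 328 fragments in WT replicate 2 and 3 to 27 elsewhere, 8 of them in KO replicate 1. The median deviation of that list was highest in WT replicate 1, at 0.23 on the log2 scale.

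Of 10 markers of striatal neurons, 1 (*Penk*, an opioid peptide precursor) was highest in KO replicate 1 and lowest in WT replicate 2, at 73.3 and 18.8 CPM. That order was found for 6.96% of all genes tested, so the striatal count was near that share. The median deviation of the striatal list was highest in KO replicate 2 (0.60) and WT replicate 3 (0.36). Of 10 cortical interneuron markers, 4 were highest in KO replicate 1 and 3 of these were lowest in WT replicate 2. These were *Gad1*, *Gad2* and the peptide *Crh*, whose level was 9.87 CPM in the former library and 2.37 CPM in the latter. The interneuron list had a median log2 fold change of -0.15. Oligodendrocyte and cortical excitatory neuron markers were highest in KO replicate 1 for 0 of 8 and 0 of 12 genes, and the excitatory list had a median deviation of -0.23 there, against -0.05 to 0.14 in the other libraries. Of 8 genes of the nasal epithelium, 6 had 0 fragments in every library, and *Cyp2a5* and *Ascl3* had at most 2 and 3. The part of these tissues in the levels of the members was not tested.

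**Figure D5:**
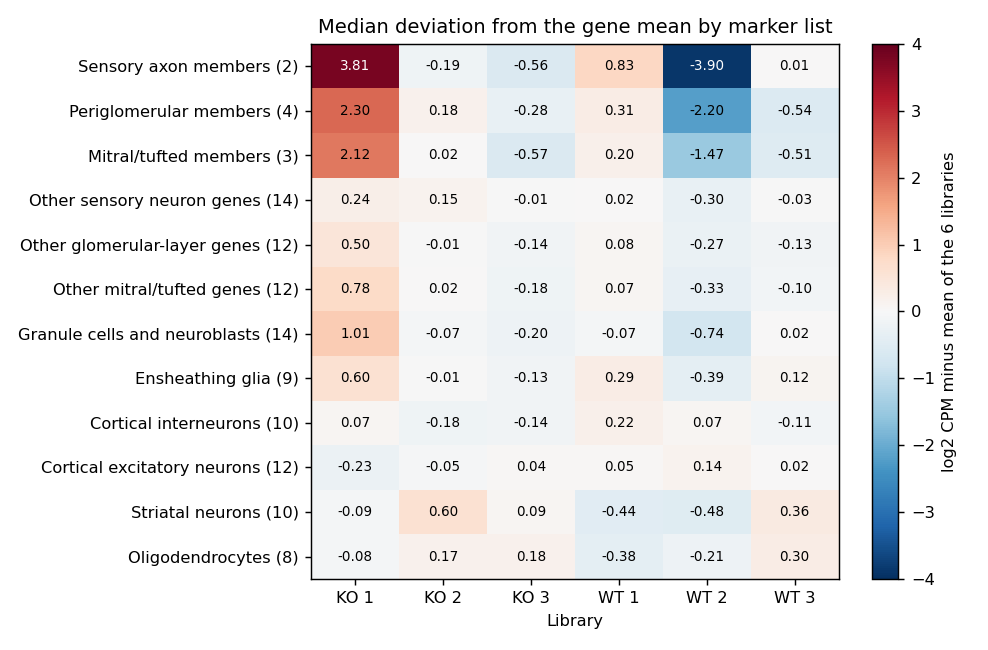
Median over the genes of each list of log2 CPM minus the mean of the 6 libraries, with the number of genes tested in brackets. KO replicate 1 is the highest library in the upper 8 lists, from 0.24 to 3.81, while the cortical excitatory list is at -0.23 there and the striatal list peaks in KO replicate 2 at 0.60.

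Genes with the most similar pattern were sought among 3080 genes with a mean of at least 0.5 CPM and a range of at least 1 on the log2 scale. Pearson's r between each gene and the mean pattern of the members over 6 libraries is a description, since the points share libraries and depth. The 15 nearest genes had an r of 0.986 to 0.998, and 74 genes had an r of at least 0.95. They were *Pax6*, *Lgr6*, *Npr1*, *Gcnt1*, *Meis1*, *Gng4*, *Ltbp2*, *Shisa8*, *Pappa*, *Fabp7*, *Smoc1*, *Ptpro*, *Akain1*, *Iqgap3* and 1 gene without a symbol. *Pax6*, a regulator of dopaminergic periglomerular cells, was nearest in pattern but moved less, at 21.1, 11.1 and 10.2 CPM in the KO libraries and 12.4, 6.71 and 9.89 CPM in the WT libraries. *Lgr6*, a relative of *Lgr5*, was at 41.0, 11.1 and 9.84 CPM in the KO libraries and 12.2, 3.11 and 8.32 CPM in the WT libraries. KO replicate 1 was 1.43 times (*Akain1*) to 4.14 times (*Ltbp2*) the next library among the 15. Between a member and the mean of the other 9 members, r was 0.873 for *Tbx21* and 0.961 to 0.992 for the remaining members.

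The promoters of the members were examined in RefSeq sequences of GRCm38.p6, the assembly before that of the counts. Whether they bear on the levels in these libraries was not tested. Windows of 250 bases before to 50 bases after the gene start were found for 7 of 10 members, in 9 windows. *Omp*, *Calb2* and *Lgr5* have no entry there. A gene each is shown for the sensory axons and the periglomerular cells, with the T-box gene and the most counted gene of the mitral and tufted cells, 5′ to 3′ on the gene's strand, with capitals for the cAMP response element found in *Th*. They lie at chr3:90608272-90608571 (plus strand) for *S100a5*, chr7:142899946-142900245 (minus) for *Th*, chr11:97115282-97115581 (minus) for *Tbx21* and chr14:37098298-37098597 (minus) for *Cdhr1*.
S100a5: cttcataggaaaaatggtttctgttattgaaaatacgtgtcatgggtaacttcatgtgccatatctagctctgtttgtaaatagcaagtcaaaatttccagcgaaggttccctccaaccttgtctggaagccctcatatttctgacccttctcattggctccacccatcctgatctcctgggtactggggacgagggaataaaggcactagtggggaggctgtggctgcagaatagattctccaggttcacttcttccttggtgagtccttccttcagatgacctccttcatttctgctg
Th: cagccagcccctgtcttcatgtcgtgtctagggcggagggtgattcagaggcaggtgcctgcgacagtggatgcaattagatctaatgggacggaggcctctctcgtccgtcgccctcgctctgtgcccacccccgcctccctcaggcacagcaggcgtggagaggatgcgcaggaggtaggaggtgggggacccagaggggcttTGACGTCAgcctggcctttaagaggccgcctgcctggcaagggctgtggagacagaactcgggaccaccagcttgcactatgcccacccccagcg
Tbx21: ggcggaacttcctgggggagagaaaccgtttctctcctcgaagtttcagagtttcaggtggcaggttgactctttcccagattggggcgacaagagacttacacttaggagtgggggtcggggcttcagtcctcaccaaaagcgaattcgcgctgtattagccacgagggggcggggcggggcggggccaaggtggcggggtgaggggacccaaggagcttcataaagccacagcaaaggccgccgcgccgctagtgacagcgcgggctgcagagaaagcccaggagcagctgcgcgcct
Cdhr1: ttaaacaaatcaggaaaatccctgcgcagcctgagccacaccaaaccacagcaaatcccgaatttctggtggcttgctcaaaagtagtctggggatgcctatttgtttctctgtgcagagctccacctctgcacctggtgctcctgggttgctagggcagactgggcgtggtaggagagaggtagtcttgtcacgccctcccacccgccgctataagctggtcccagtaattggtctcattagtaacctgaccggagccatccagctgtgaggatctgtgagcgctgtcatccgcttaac

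On both strands, 5 motifs were searched. The cAMP response element TGACGTCA was found in *Th*, beginning 45 bases before the gene start, and in 1.79% of 32851 windows of the same length. TATAAA was found in 1 of the 3 windows of *Sp8*, at 2 places, and in 13.6% of all windows. A shortened motif of the EBF factors of sensory neurons, TCCCNNGGG (6.56% of all windows), the T-box motif AGGTGTGA (1.28%) and the NR4A motif AAAGGTCA (1.51%) were in none of the 9 windows. No motif overlapped another, and no motif was found in more than 1 member.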

How the data were processed

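RNA of prefrontal cortex was measured in 3 KO and 3 WT libraries made with a stranded polyadenylated RNA kit. Per the file headers, the authors deposited raw counts of fragments over exons per gene, from featureCounts 1.6.0 (paired-end, strand option 2) on GENCODE M31. The submitters' processing notes name STAR 2.7.9a and GRCm39, while the study's methods give an older assembly and annotation. Fragments that map to several places or to exons of several genes were left uncounted. Groups came from the sample titles.

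Symbols were matched by gene identifier for 52073 of 56923 genes. Genes with at least 6 fragments in at least 1 library were tested (19084), with TMM scaling (edgeR 4.0.16) and limma-voom 3.58.1 in R 4.3.3, two-sided, with Benjamini-Hochberg adjustment. The filter, edgeR with voom and limma are those of the study's methods, which do not name the scaling or the adjustment. The scripts were tested on simulated counts. log2 CPM used a prior count of 0.5. Alternatives were edgeR's quasi-likelihood test, DESeq2 1.42.0, RLE factors or library totals, other filters, weights for library quality, a block for the replicate number, and leaving out each library. The members and lists were chosen with earlier results of these data known.

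Named genes were the members, up to 3 genes per other bulb list with the largest range over libraries and 20 or more fragments in a library, and the 15 genes of nearest pattern. Further genes were named for their role, after their values were seen. The split by *Xist* and the lymphocyte list were also added then.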

Additional observations from a re-analysis of the deposited data

How the results depend on the processing

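All 10 members had a log2 fold change above 0 with all 6 libraries and under every alternative run except the fit without KO replicate 1, where *Tbx21* was at -0.28. With edgeR's filter only 9 members could be fitted. Their median, 1.56 with all 6 libraries, was 0.59 to 2.04 with single replicates left out and 1.43 to 1.66 under the alternatives that kept every library. Under other scalings KO replicate 1 stayed 7.96 to 8.20 times the next library for the sensory axon sum, 3.72 to 3.83 times for the periglomerular sum and 3.76 to 3.87 times for the mitral/tufted sum.

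The number of genes at an adjusted p-value under 0.05 was 0 with all 6 libraries, 1 with DESeq2, 0 to 1 with single replicates left out and 3 in the 4 libraries without *Xist*, a setting chosen after the data were seen. No member was among them. The number at an unadjusted p-value under 0.05 was 1492, and it was 902 with DESeq2, 782 (without WT replicate 2) to 2239 (without WT replicate 3) with single replicates left out, 830 without KO replicate 1 and 696 without the *Xist* libraries. The cause was not tested, and the last fits used fewer libraries. The median log2 fold change of the other sensory neuron genes was 0.00 with edgeR's filter and 0.12 without KO replicate 1. That of the mitral/tufted list was also 0.00 with that filter and was -0.04 without KO replicate 1, and that of the glomerular-layer list was 0.32 and 0.09. The granule cell and neuroblast median was 0.22 (without KO replicate 1) to 0.69 (without KO replicate 3) with single replicates left out.

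Same-numbered libraries of the groups deviated from their group means with correlations of 0.490, 0.136 and 0.015 for numbers 1 to 3. Between libraries of unlike number the correlations were -0.376 to 0.358. Only number 1 was above that range, and its libraries were those with *Xist*. Because numbers 2 and 3 lay within that range, the numbers were not taken to pair the samples. With the replicate block, 0 genes passed the adjusted threshold, 1693 were under 0.05 before adjustment, and the members had a median of 1.6. Levels below about 0.246 CPM, 3 fragments in WT replicate 2, could not be told from 0.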
